A study of Drosophila melanogaster with 15 samples.

Results

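Monosiga Yap-TBD and Trichoplax Yap S81A, both of which gave overgrown eye tissue in flies, were compared directly. Monosiga Yap-TBD is Yap of the choanoflagellate Monosiga, a unicellular relative of animals, joined to a human TEAD-binding domain (TBD). Trichoplax Yap S81A is Yap of the placozoan Trichoplax, a simple animal, in which a serine was replaced by alanine. The libraries compared were chosen by their labels and number 6 of the 15 in the series, 3 for each construct. The genotypes were GMR-Gal4; UAS-eGFP; UAS-MonosigaYAP+HumanTBD and GMR-Gal4; UAS-eGFP; UAS-TrichoplaxYAP S81A, and the 3 control libraries quoted beside them came from GMR-Gal4; UAS-eGFP discs. All of these animals therefore carried the GMR-Gal4 driver and eGFP. Polyadenylated RNA was sequenced from the GFP-positive part of eye imaginal discs, cut out by hand from 25 to 30 discs of third-instar larvae per library. Per the labels, both constructs gave defects of differentiation together with strong overproliferation, and control eyes were normal. The labels give no sex, no clone or insertion site of the transgenes, and no matched level of the 2 foreign proteins. The sample description names human TEAD where the genotype names human TBD, and the genotype is followed here.

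The eye disc is the larval epithelium that becomes the adult eye. A furrow sweeps across it, and behind the furrow cells leave the cycle and become photoreceptors, then cone and pigment cells. Yki, the fly Yap, is a coactivator that has no DNA-binding domain of its own. It acts with Scalloped (sd), the fly TEAD protein, on genes for growth and survival. The kinases Hippo and Warts hold it in check by phosphorylating serines, and alanine in such a place frees the protein from that control. GMR is made of binding sites for the transcription factor Glass (gl), and is active behind the furrow.

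Depth, estimated from the steps between low values, was 16.5, 11.9 and 13.6 M fragments (M, mega) in Monosiga Yap-TBD replicates 1, 2 and 3 and 13.7, 14.5 and 17.1 M in Trichoplax Yap S81A replicates 1, 2 and 3. FPKM counts fragments per kilobase of transcript and per M fragments sequenced. A transcript 2000 bases long at 1 FPKM had about 23.8 fragments in the shallowest library. Trichoplax Yap S81A replicate 1 stood apart through transcripts of larval fat body. Fbp1, for a fat body receptor of storage proteins, was at 2660.5 FPKM there and at 8.51 and 0.0357 FPKM in replicates 2 and 3, against 0.202 to 4.30 FPKM in the Monosiga Yap-TBD libraries. Lsp2, for a larval serum protein, was at 1352 FPKM in that replicate, at 14.2 and 0.11 FPKM in the others, and at 0.369 to 2.72 FPKM with Monosiga Yap-TBD. Trichoplax Yap S81A replicate 2 stood apart through the male dosage compensation RNAs lncRNA:roX1 and lncRNA:roX2. They were at 12.3 and 7.12 FPKM there, against 68.7 to 92.5 and 41.2 to 71.9 FPKM in the other Trichoplax Yap S81A libraries and 50.1 to 67.3 and 28.5 to 42.8 FPKM with Monosiga Yap-TBD. Whether counting used strand is not stated, and among the named genes elav, ex, LamC, aay, pip, Wnt4, ru, fng, neur, magu, boi, cher, dan, rst, hbs, Pax, Fas3, Timp, PGRP-LB and Cyp310a1 overlap another gene on the other strand, so their values are uncertain to that extent. The eye marker eya was at 69.4 to 91.5 FPKM with Monosiga Yap-TBD, at 82.9 to 89.3 FPKM with Trichoplax Yap S81A and at 132.7 to 179.0 FPKM in the control.

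Of 9213 genes tested with limma on log2(FPKM + 1), 582 (6.32%) had an adjusted p under 0.05 and are called changed. Relative to Trichoplax Yap S81A, 275 genes (2.98%) were higher and 307 genes (3.33%) lower with Monosiga Yap-TBD. The mean FPKM differed by at least 2-fold in 155 of the higher and 176 of the lower genes. In 581 of the called genes the libraries of the 2 groups did not overlap, which held for 24.2% of all genes tested. An unadjusted limma p under 0.05 was held by 1603 of the 9213 genes, the background for such counts in the gene lists below. The median log2 fold change of all genes was -0.03, with a median SE of 0.193. Shifting all libraries to one median gave 373 higher and 262 lower genes, so 58.7% in place of 47.3% of the calls were higher. Without 1 library the total lay between 317 and 447. It was 317 without Monosiga Yap-TBD replicate 1 and 327 without replicate 2, both more than 1.5 times smaller, and 258 genes (44.3%) were called with every single library left out. In a disc, fewer cells of a type and less RNA per cell cannot be told apart, and this holds for each result that follows.

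**Figure D1:**
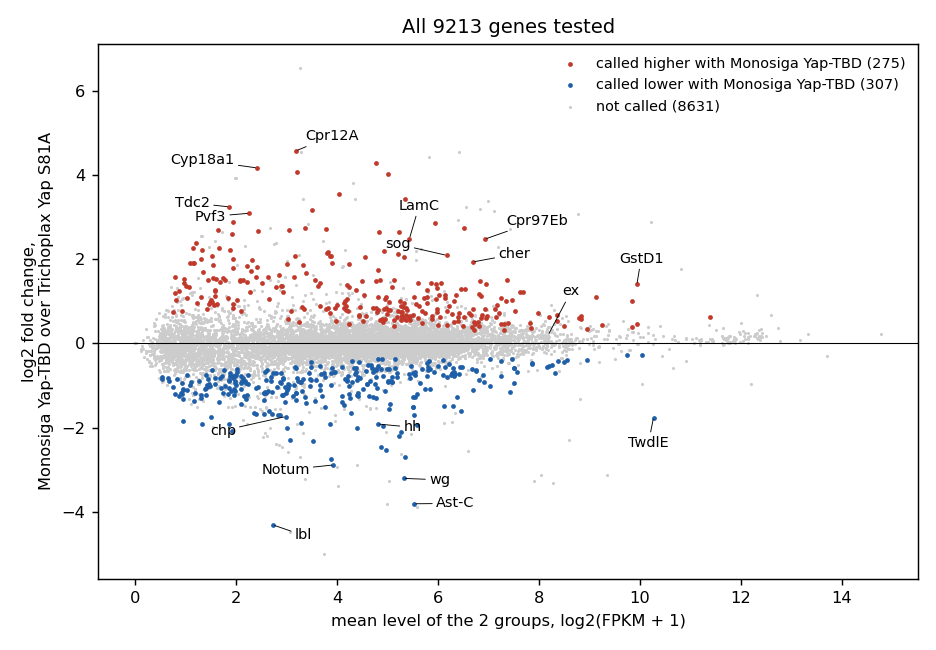
Each point is 1 of the 9213 genes tested, with its mean level in the 2 groups on the x axis, log2(FPKM + 1), and its log2 fold change, Monosiga Yap-TBD over Trichoplax Yap S81A, on the y axis. Red points are the 275 genes called higher and blue points the 307 called lower with Monosiga Yap-TBD, while ex, a gene of the Yki response, lies near 0 among the genes not called.

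Several genes used as readouts of Yki, among them ex, kibra, dally and CycE, were not called between the constructs. The gene ex (2L 431253 to 448701, dm3) encodes Expanded, an upstream activator of the Hippo kinases that Yki itself induces. It was at 341, 270 and 316 FPKM in the Monosiga Yap-TBD libraries, at 264, 228 and 319 FPKM in the Trichoplax Yap S81A libraries, and at 53.1 to 57.0 FPKM in the control. The libraries of the 2 constructs overlapped, and the log2 fold change of ex was 0.20 (SE 0.15, limma adjusted p = 0.551). Expression of kibra (CG33967), a partner of Expanded, averaged 78.1 ± 6.24 FPKM with Monosiga Yap-TBD, 63.2 ± 11.1 with Trichoplax Yap S81A and 21.5 ± 1.02 in the control (SD, n = 3 each). Its log2 fold change between the constructs was 0.31 (SE 0.18, limma adjusted p = 0.398). The glypican gene dally stood at 171, 146 and 61.9 FPKM in the same order (adjusted p between the constructs = 0.458). CycE, the cyclin of entry into S phase, averaged 36.5 ± 2.37 FPKM with Monosiga Yap-TBD and 41.9 ± 11.6 with Trichoplax Yap S81A (SD, n = 3 each, limma adjusted p = 0.735), where replicate 3 held 55.4 FPKM. The endogenous yki gene was at 71.6 against 75.3 FPKM (limma adjusted p = 0.897), and sd at 119 against 113 FPKM (adjusted p = 0.79). The constructs are foreign sequence, so the yki value is no measure of them, and their own levels were not analysed here.

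Other genes of the Yki response did differ, in both directions. Of 16 targets tested, 3 were higher (vn, fj and dlp) and 4 lower (th, wg, Wnt4 and E2f), 43.8% against 6.32% of all genes, and the median log2 fold change was 0.04. The ligand gene vn, for the EGF receptor ligand Vein, was at 19.4, 19.4 and 16.5 FPKM with Monosiga Yap-TBD, at 5.26, 5.06 and 10.3 FPKM with Trichoplax Yap S81A and at 1.10 to 1.38 FPKM in the control. No library of the one construct reached those of the other, and vn was 2.68-fold higher with Monosiga Yap-TBD (limma adjusted p = 0.00156). The Golgi kinase gene fj (four-jointed), of the Fat and Dachsous branch, was at 85.2, 72.4 and 82.5 FPKM against 45.4, 44.5 and 53.4 FPKM, 1.68-fold higher (adjusted p = 0.00178). The Trichoplax Yap S81A libraries lay close to the 36.8 to 40.9 FPKM of the control. The glypican gene dlp rose 1.77-fold (adjusted p = 0.00669). In the other direction, th, which encodes the caspase inhibitor Diap1, was at 325, 322 and 331 FPKM with Monosiga Yap-TBD, at 421, 417 and 455 FPKM with Trichoplax Yap S81A and at 296 to 310 FPKM in the control. This was a small but sharply separated difference of 0.756-fold (limma adjusted p = 0.00473). E2f, the activating E2F factor of the cell cycle, was at 90.2 ± 6.92 FPKM with Monosiga Yap-TBD, against 155 ± 30.9 FPKM with Trichoplax Yap S81A (SD, n = 3 each, adjusted p = 0.01). Both constructs stood above the control for E2f, with the authors' natural log ratios at 0.49 with Monosiga Yap-TBD and 1.03 with Trichoplax Yap S81A.

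Among the 29 components of the Hippo pathway tested, fj and 14-3-3zeta were the 2 called, both higher. This was 6.9% of them, near the 6.32% of all genes, and the median log2 fold change was 0.08. The call of 14-3-3zeta, whose product binds phosphorylated Yki, rested on 1051 against 808 FPKM (limma adjusted p = 0.0287). It ended when any 1 of Monosiga Yap-TBD replicates 1, 2 and 3 or Trichoplax Yap S81A replicates 1 and 2 was left out, with adjusted p up to 0.114. It also ended after quantile normalization (adjusted p = 0.0761), with only the 2 groups in the fit (0.0771) and without the variance trend and robust moderation (0.0525).

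The constructs differed in the ligands and feedback genes of Wnt signalling. Wnt ligands are secreted lipid-bearing proteins, and Wingless (Wg) patterns the disc margin and keeps differentiation away from it. The gene wg (2L 7307161 to 7316255) was at 11.2, 17.1 and 7.92 FPKM in the Monosiga Yap-TBD libraries and at 107, 79.3 and 176 FPKM in the Trichoplax Yap S81A libraries, against 4.63, 4.82 and 2.30 FPKM in the control. Its level was 0.0999-fold with Monosiga Yap-TBD relative to Trichoplax Yap S81A, a log2 fold change of -3.20 (SE 0.36, limma adjusted p = 9.87e-05). Both constructs stood above the control, by 3.08-fold with Monosiga Yap-TBD and 30.8-fold with Trichoplax Yap S81A. Wnt6 was at 18.9, 24.2 and 14.4 FPKM against 57.1, 50.9 and 50.4 FPKM (limma adjusted p = 0.00631). Wnt10 was at 0.192 to 0.236 FPKM with Monosiga Yap-TBD and at 1.52 to 2.62 FPKM with Trichoplax Yap S81A (adjusted p = 0.00146). Wnt4 fell to 1.65 FPKM, against 4.69 FPKM (adjusted p = 0.0233), a call that ended without Monosiga Yap-TBD replicate 1 or 2 or Trichoplax Yap S81A replicate 1 or 3, with adjusted p up to 0.114. The call of Wnt4 also ended with a pseudocount of 5 (adjusted p = 0.0595), with libraries shifted to one median (0.0654) and with only the 2 groups in the fit (0.0557).

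Notum and fz3, both induced by Wg signalling, were lower as well. Notum encodes an extracellular enzyme that strips the lipid from Wg. It was at 3.69, 3.77 and 6.14 FPKM with Monosiga Yap-TBD, overlapping the 3.56 to 5.43 FPKM of the control, while the Trichoplax Yap S81A libraries held 57.5, 27.0 and 38.2 FPKM (log2 fold change -2.88, limma adjusted p = 0.000486). The frizzled family gene fz3 was at 18.1 against 38.6 FPKM (adjusted p = 0.00394). Of 25 genes of the pathway tested, 6 were lower and 2 higher, 32% against 6.32% of all genes. The median log2 fold change was -0.17. The higher ones were nmo, a kinase that restrains Wg signalling, at 81.1 against 52.0 FPKM (adjusted p = 0.00669), and the receptor gene fz2 at 131 against 91.4 FPKM (adjusted p = 0.00928). The call of fz2 ended without Monosiga Yap-TBD replicate 1 (adjusted p = 0.0514) and after quantile normalization (0.0651).

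Hedgehog showed a like contrast in its ligand. Photoreceptors secrete Hedgehog, which drives the furrow forward. The gene hh (3R 18953425 to 18967881) was at 15.1, 13.9 and 11.4 FPKM with Monosiga Yap-TBD, at 53.4, 46.1 and 61.0 FPKM with Trichoplax Yap S81A and at 17.0, 19.6 and 28.8 FPKM in the control. The Monosiga Yap-TBD libraries thus lay below all control libraries and the Trichoplax Yap S81A libraries above them (log2 fold change between the constructs -1.91, SE 0.20, limma adjusted p = 3.57e-05). The gene hh overlaps CG31457 on the same strand in the deposited coordinates. Of other genes named here, dally, sd, Surf6, ImpE3, Fas3, NetB and GstD1 each overlap a gene on the same strand too. The values of all these genes are uncertain to that extent. The coreceptor gene boi was at 111, 101 and 112 FPKM against 53.8, 66.5 and 78.2 FPKM, 1.63-fold higher (adjusted p = 0.0027). The other 16 genes of the pathway tested were not called, among them the target and receptor ptc, with a log2 fold change of 0.10 (limma adjusted p = 0.9). The called genes hh and boi were 11.1% of the pathway genes tested, against 6.32% of all genes.

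Of 24 genes of Dpp and BMP signalling, 4 were higher and 1 lower, 20.8% against 6.32% of all genes. The median log2 fold change was 0.07. The ligand gene dpp itself was at 27.5, 27.3 and 29.5 FPKM against 25.1, 21.6 and 27.8 FPKM (limma adjusted p = 0.627), and at 6.62 FPKM in the control. Its antagonist gene sog (X 15498603 to 15520573), which encodes a secreted protein that binds BMP ligands, was at 144, 147 and 145 FPKM with Monosiga Yap-TBD, at 25.1, 31.5 and 46.6 FPKM with Trichoplax Yap S81A and at 15 to 20.2 FPKM in the control. The Monosiga Yap-TBD libraries lay close together, and sog was 4.22-fold higher in them (limma adjusted p = 6.92e-06). The secreted modulator gene magu was at 44.6 FPKM with Monosiga Yap-TBD, 22.5 FPKM with Trichoplax Yap S81A and 69.6 FPKM in the control (adjusted p between the constructs = 0.0016). The repressor gene brk, which Dpp signalling shuts off, stood at 39.8 against 21.9 FPKM (adjusted p = 0.013), a call lost without Monosiga Yap-TBD replicate 1 or Trichoplax Yap S81A replicate 3, with adjusted p up to 0.0748. The target gene bi was lower, at 15.5 against 25.2 FPKM (adjusted p = 0.0227). It was not called without Monosiga Yap-TBD replicate 1 or 2 or Trichoplax Yap S81A replicate 1 or 2, where adjusted p reached 0.12, nor with libraries shifted to one median (0.0756), after quantile normalization (0.0714) or with only the 2 groups in the fit (0.0613).

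In EGF receptor signalling, 1 of 27 genes was higher (vn) and 2 were lower (ru and boss), 11.1% against 6.32% of all genes. The median log2 fold change was -0.18. In Notch signalling, 2 of 31 genes were higher and 1 lower (9.68%, against 6.32% of all genes), with a median of -0.05. Without Trichoplax Yap S81A replicate 2 the counts were 6 higher and 0 lower. The glycosyltransferase gene fng, whose product modifies Notch, was at 49.7, 47.0 and 57.1 FPKM against 30.0, 31.1 and 21.5 FPKM, 1.86-fold higher (limma adjusted p = 0.00441). The Notch target m4 stood at 134 against 55.9 FPKM (adjusted p = 0.0321). The ubiquitin ligase gene neur, whose product activates Notch ligands, stood at 13.4 against 23.3 FPKM (adjusted p = 0.0127). The calls of m4 and neur each ended with some libraries left out. These were Monosiga Yap-TBD replicates 1 and 3 and Trichoplax Yap S81A replicates 1 and 3 for m4 (adjusted p up to 0.134), and Monosiga Yap-TBD replicates 1 and 2 and Trichoplax Yap S81A replicate 2 for neur (up to 0.0658). The call of m4 also ended with only the 2 groups in the fit (adjusted p = 0.0746) and with the replicate block (0.0569), and that of neur with libraries shifted to one median (0.0554). Of 11 genes of JAK/STAT signalling none was called by limma, and none had an unadjusted p under 0.05. The least was that of the SUMO ligase gene Su(var)2-10, with a log2 fold change of -0.22 (limma adjusted p = 0.481).

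Genes of photoreceptor fate and function were lower with Monosiga Yap-TBD. Of 37 genes of photoreceptor specification tested, 9 were called lower and none higher, with a median log2 fold change of -0.31 against -0.03 for all genes. Of 41 genes of neuronal and photoreceptor differentiation, 14 were called lower and none higher, with a median of -0.35. The genes called lower were 24.3% of the first list and 34.1% of the second, against 3.33% of all genes tested. The first count fell to 4 without Monosiga Yap-TBD replicate 1 or 2 or Trichoplax Yap S81A replicate 2 or 3. The second lay between 9 and 15 with 1 library left out, and was 9 without Trichoplax Yap S81A replicate 3.

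The gene gl, whose zinc finger product photoreceptors need, was at 30.1, 29.7 and 24.5 FPKM with Monosiga Yap-TBD, at 57.8, 65.9 and 84.8 FPKM with Trichoplax Yap S81A and at 95.2 to 128 FPKM in the control. The 3 groups did not overlap, and gl was 0.404-fold between the constructs (limma adjusted p = 0.00256). Since GMR is made of Glass sites, the driver's own activator differed between the groups, and the part of this in the other results was not tested. The Runx factor gene lz, which sets the fates of late photoreceptors, cone cells and pigment cells, was at 17.7, 13.9 and 16 FPKM against 35.5, 40.2 and 44.1 FPKM (0.397-fold, adjusted p = 7.6e-05). The gene boss, for the ligand by which photoreceptor R8 induces R7, was at 1.22 ± 0.349 FPKM with Monosiga Yap-TBD, against 4.02 ± 0.673 with Trichoplax Yap S81A and 8.61 ± 2.37 in the control (SD, n = 3 each, limma adjusted p between the constructs = 0.00497). The pan-neuronal gene elav was at 15.5, 12.7 and 16.6 FPKM against 19.8, 28.6 and 27.6 FPKM, with 41.8 to 58.6 FPKM in the control (adjusted p between the constructs = 0.0287). That call ended without Monosiga Yap-TBD replicate 1 or 2 or Trichoplax Yap S81A replicate 2 or 3, with adjusted p up to 0.138. It also ended when only the 2 groups were fitted. The protease gene ru, which releases EGF receptor ligands, was lower by 0.51-fold (adjusted p = 0.0203), and lost its call without any 1 of the same 4 libraries (up to 0.0977).

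Genes that build the photoreceptor moved in the same direction. The gene chp (3R 27029904 to 27036452), for chaoptin, an adhesion protein of the light-sensing membrane, was at 3.44, 2.59 and 3.89 FPKM with Monosiga Yap-TBD and at 11.1, 12.2 and 17.1 FPKM with Trichoplax Yap S81A, against 31.6 to 41.7 FPKM in the control (0.246-fold between the constructs, limma adjusted p = 0.000137). The eye protein kinase C gene inaC was at 3.99 against 10.6 FPKM, with 43.6 FPKM in the control (adjusted p = 0.000297), and the sodium pump subunit gene nrv3 at 5.34 against 16.1 FPKM, with 42 FPKM in the control (adjusted p = 0.000739). For these 3 genes the control was the highest group and Monosiga Yap-TBD the lowest. The ranking was different for ninaC, a myosin gene of photoreceptors, at 0.213 to 0.418 FPKM with Monosiga Yap-TBD, 2.73 to 4.99 FPKM with Trichoplax Yap S81A and 0.152 to 0.289 FPKM in the control (adjusted p = 7.87e-05). It starts 187 bases after the end of Wnt10, on the same strand, and so adjoins the row of Wnt genes that were lower too. For Rh5, another photoreceptor gene, the control was not the highest group either. Its natural log ratios over the control, by the authors, were 2.04 (Monosiga Yap-TBD) and 2.84 (Trichoplax Yap S81A). The direct comparison put Rh5 lower with Monosiga Yap-TBD, at a limma adjusted p of 0.00976. Leaving out Monosiga Yap-TBD replicate 1 raised this value to 0.0618, above the limit of 0.05.

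Some genes of eye fate that were low with both constructs were not called between them. The R7 receptor gene sev was at 8.49, 9.42 and 10.2 FPKM against 11.6, 20.3 and 13.1 FPKM, with 101 to 128 FPKM in the control (limma adjusted p between the constructs = 0.157). The gene sv, a Pax factor of cone cells, was at 0.662 against 0.792 FPKM, with 15.6 FPKM in the control (adjusted p = 0.836), and the zinc finger gene salm at 0.694 against 1.30 FPKM, with 12.5 FPKM in the control (adjusted p = 0.352). For sev the libraries of the 2 constructs did not overlap. With both constructs sv and salm lay at low levels, where log2(FPKM + 1) understates a difference. The lack of a call therefore does not show equal levels. These 3 genes were chosen after their values were seen, as genes far below the control with both constructs and not called between them. Other genes below the control with both constructs were called, such as inaC above. Another was salr, which the authors put at natural log ratios over the control of -2.78 (Monosiga Yap-TBD) and -1.91 (Trichoplax Yap S81A). The call of salr, lower with Monosiga Yap-TBD (limma adjusted p = 0.0296), ended in several alternatives (up to 0.222).

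**Figure D2:**
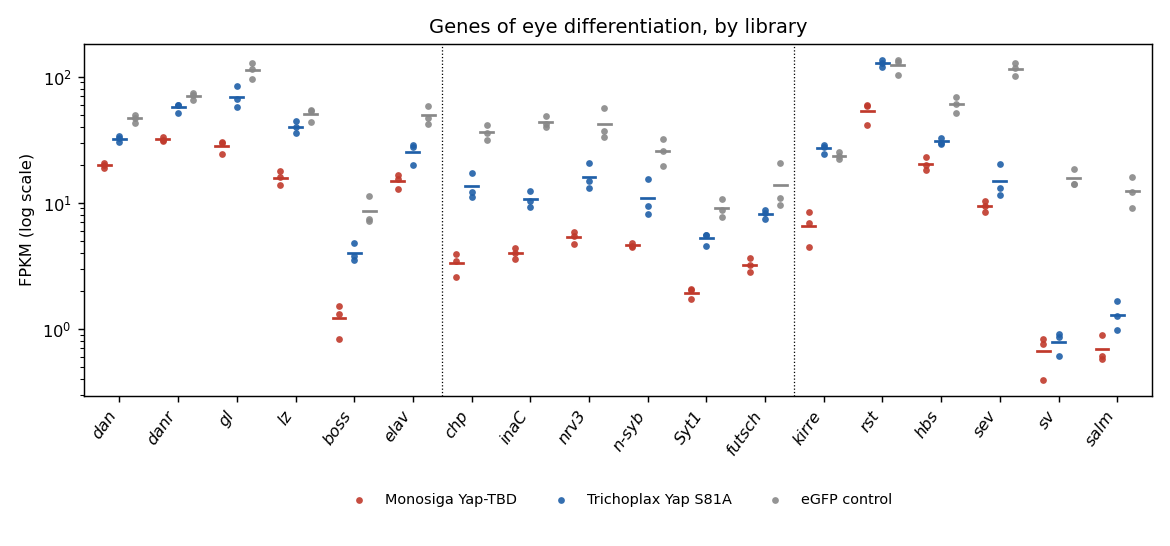
Points are the FPKM values of single libraries on a log axis for 18 genes of eye differentiation, with bars at the mean of each group of 3 libraries (Monosiga Yap-TBD red, Trichoplax Yap S81A blue, control grey). Dotted lines part genes of specification (left), neuronal and photoreceptor genes (middle) and genes of cone and pigment cells and subtype fate (right). For chp the libraries run from 2.59 to 3.89 FPKM, from 11.1 to 17.1 FPKM and from 31.6 to 41.7 FPKM, while for sv both constructs lie below 1 FPKM.

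Of 24 genes of cone and pigment cells, 6 were lower (25%, against 3.33% of all genes) and none higher. The median log2 fold change was -0.26. The count of lower genes was 3 without Monosiga Yap-TBD replicate 1 or 2 or Trichoplax Yap S81A replicate 2. Called under every alternative were lz, described above, kirre and rst. Both kirre and rst encode paired immunoglobulin adhesion proteins that sort the cells between ommatidia. Expression of kirre was 6.84, 4.43 and 8.38 FPKM with Monosiga Yap-TBD, and 27.8, 28.5 and 24.5 FPKM with Trichoplax Yap S81A, close to the 22.2 to 25.1 FPKM of the control (0.243-fold between the constructs, limma adjusted p = 9.99e-05). Expression of rst was 58.6, 41.5 and 59.1 FPKM against 120, 134 and 129 FPKM, with 103 to 136 FPKM in the control (adjusted p = 0.000551). The 2 genes overlap on opposite strands of the X chromosome, and whether strand was used in counting is not stated. Their partner gene hbs was at 20.3 against 30.6 FPKM (adjusted p = 0.0127), a call that ended without Monosiga Yap-TBD replicate 1 or 2 or Trichoplax Yap S81A replicate 2 (up to 0.0731).

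The network that sets eye identity differed in 3 of its 20 tested genes, all lower, 15% against 3.33% of all genes. The median log2 fold change was 0.05, and the 3 genes were called with each library left out. Optix, a homeobox gene of the family of sine oculis, was at 12.8, 10.8 and 14.5 FPKM with Monosiga Yap-TBD, at 26.7, 30.8 and 37.9 FPKM with Trichoplax Yap S81A and at 12.5 to 15.9 FPKM in the control (limma adjusted p = 0.000518). The neighbouring nuclear factor genes dan and danr were at 19.7 against 32.2 FPKM (adjusted p = 0.00795) and at 31.8 against 57.1 FPKM (adjusted p = 0.00792), with 46.6 and 70.4 FPKM in the control. The progenitor factor gene hth was at 137 against 174 FPKM (limma adjusted p = 0.394), and eya, so and dac were not called.

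Several of the largest rises with Monosiga Yap-TBD were in genes that Trichoplax Yap S81A left near the control level. Cyp18a1 (X 18582570 to 18586778) encodes a cytochrome P450 that inactivates the moulting hormone ecdysone. It was at 19.8, 19.2 and 26.2 FPKM with Monosiga Yap-TBD, at 0.250, 0.258 and 0.255 FPKM with Trichoplax Yap S81A and at 0.216 to 0.284 FPKM in the control. The ratio of means was 85.3 (log2 fold change 4.16, SE 0.18, limma adjusted p = 1.84e-08). The ratios of this paragraph are set against levels below 1 FPKM and so rest on few fragments on that side. Tdc2 (2R 2572477 to 2577467), for the tyrosine decarboxylase of octopamine neurons, was at 10.1, 9.96 and 10.5 FPKM against 0.207, 0.261 and 0.0829 FPKM (55.4-fold, adjusted p = 8.19e-08). Cyp18a1 and Tdc2 passed the filter on low values only through the 3 Monosiga Yap-TBD libraries, and so were not tested with one of these left out. With no such filter their adjusted p were 1.67e-08 for Cyp18a1 and 7.17e-08 for Tdc2. Tbh, for the enzyme that turns tyramine, the product of Tdc2, into octopamine, was at 7.14, 6.42 and 7.14 FPKM against 0.531, 0.778 and 0.788 FPKM (9.87-fold, adjusted p = 3.86e-06). Tdc2 overlaps CG9422 and Tbh overlaps CG15333 on the other strand. The neighbouring decarboxylase gene Tdc1, looked up because Tdc2 was called, was at 1.34 against 0.808 FPKM (limma adjusted p = 0.689). Pvf3, for a ligand of the PDGF and VEGF family, was at 12.7, 13.2 and 12.9 FPKM against 0.618, 0.675 and 0.619 FPKM (20.3-fold, adjusted p = 8.19e-08). The gene of its receptor, Pvr, was at 30.0 and 30.3 FPKM (adjusted p = 0.98). The immunoglobulin family gene dpr17 was at 6.59 against 0.912 FPKM (adjusted p = 0.000165).

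LamC (2R 10458309 to 10463307), the A-type nuclear lamin gene, was at 112, 81.6 and 111 FPKM with Monosiga Yap-TBD, at 18.7, 18.0 and 14.9 FPKM with Trichoplax Yap S81A and at 18.4 to 32.6 FPKM in the control (5.92-fold between the constructs, limma adjusted p = 6.33e-06). The gene of the B-type lamin, Lam, looked up beside it, was at 259 against 235 FPKM (limma adjusted p = 0.633). LamC lies within ttv on the other strand.

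Cuticle protein genes moved in both directions, 3 higher and 2 lower of 22 tested, 22.7% against 6.32% of all genes. The median log2 fold change was -0.06. Cpr12A was at 41.1, 33.3 and 53.9 FPKM with Monosiga Yap-TBD, against 0.432, 0.510 and 1.73 FPKM with Trichoplax Yap S81A (48.0-fold, limma adjusted p = 1.09e-07). Cpr97Eb was at 285, 248 and 277 FPKM against 34.3, 33.3 and 94.2 FPKM (5.01-fold, adjusted p = 0.000396), with 0.335 to 1.5 FPKM in the control. Its neighbour Cpr97Ea was at 17.7 against 4.82 FPKM (adjusted p = 0.000745), with 15.5 FPKM in the control. TwdlE, of the Tweedle family, went the other way, at 783, 615 and 596 FPKM against 2117, 1816 and 2919 FPKM (0.291-fold, adjusted p = 0.00359), with 39.2 to 54.4 FPKM in the control. The chitin deacetylase gene verm was at 429 against 563 FPKM (adjusted p = 0.0336), and was not called without any 1 of 5 libraries, all but Trichoplax Yap S81A replicate 2 (up to 0.16). The call of verm also ended with libraries shifted to one median (adjusted p = 0.0547), with only the 2 groups in the fit (0.129) and without the variance trend and robust moderation (0.0613). Among 28 genes of the ecdysone response 3 were higher and 1 lower (14.3%, against 6.32% of all genes), and the median was 0.0037. Besides Cyp18a1 these were ImpL2, for a secreted insulin-binding protein, at 1296 against 645 FPKM (adjusted p = 0.00979), ImpL3, for lactate dehydrogenase, at 33.3 against 14.6 FPKM (adjusted p = 0.0117), and ImpE3 at 47.5 against 126 FPKM (adjusted p = 0.0251). ImpL2 lost its call without Monosiga Yap-TBD replicate 2 (adjusted p = 0.0574). ImpL3 lost it without Monosiga Yap-TBD replicate 1 or 2 or Trichoplax Yap S81A replicate 2 (up to 0.0629), and ImpE3 without any 1 of 5 libraries, all but Monosiga Yap-TBD replicate 2 (up to 0.112) or with only the 2 groups in the fit (0.0513). Of 21 cytochrome P450 genes, Cyp18a1, Cyp310a1 and Cyp6a20 were higher and none lower, 14.3% called against 6.32% of all genes. Cyp310a1 (3.23 against 1.23 FPKM, adjusted p = 0.0131) and Cyp6a20 (3.06 against 1.16 FPKM, adjusted p = 0.0408) both lost their calls without Monosiga Yap-TBD replicate 2 or Trichoplax Yap S81A replicate 2, with adjusted p up to 0.0688 and 0.173. Cyp6a20 also lost it without Monosiga Yap-TBD replicate 1 or Trichoplax Yap S81A replicate 1, with a pseudocount of 5 (adjusted p = 0.0533), after quantile normalization (0.128), with only the 2 groups in the fit (0.0954) and with the replicate block (0.0741).

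Several of the largest falls were in genes that stood far above the control with Trichoplax Yap S81A. The homeobox gene lbl (ladybird late, 3R 17235701 to 17259845) was at 0.659, 0.425 and 0.318 FPKM with Monosiga Yap-TBD, at 23.3, 22.6 and 41.1 FPKM with Trichoplax Yap S81A and at 0.0450 to 0.177 FPKM in the control (log2 fold change between the constructs -4.31, SE 0.31, limma adjusted p = 1.26e-06). Ast-C, for the neuropeptide allatostatin C, was at 12.6, 8.85 and 11.4 FPKM against 178, 97.8 and 255 FPKM (0.0618-fold, adjusted p = 8.38e-06). Control replicates 1 and 3 list it at 0 and replicate 2 at 0.7 FPKM. NetA, for the axon guidance cue Netrin-A, was at 4.32, 3.63 and 4.54 FPKM against 27.7, 22.4 and 23.6 FPKM (0.169-fold, adjusted p = 8.38e-06). Its relative NetB, looked up beside it, was at 43.2 against 36.3 FPKM (limma adjusted p = 0.469). The sulphotransferase gene pip was at 12.3, 15.1 and 17.8 FPKM against 95.1, 93.0 and 118 FPKM, with 24.9 to 37.9 FPKM in the control (0.148-fold, adjusted p = 1.9e-05). The gene dsx-c73A was at 0.768 against 6.48 FPKM (adjusted p = 0.00441), with 0.141 FPKM in the control. For aay, a phosphoserine phosphatase gene, and retn, an ARID factor gene of neurons, Trichoplax Yap S81A stood near the control instead. The gene aay was at 4.39 against 38.6 FPKM, with 27.9 FPKM in the control (adjusted p = 0.000137), and retn at 2.69 against 18.1 FPKM, with 26.5 FPKM in the control (adjusted p = 0.000121). The cecropin gene CecC was at 1.65, 2.29 and 1.20 FPKM against 17.9, 6.01 and 3.82 FPKM (adjusted p = 0.0478). Its call was lost in most alternatives, 5 of the 6 that left out 1 library among them, with adjusted p up to 0.192.

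**Figure D3:**
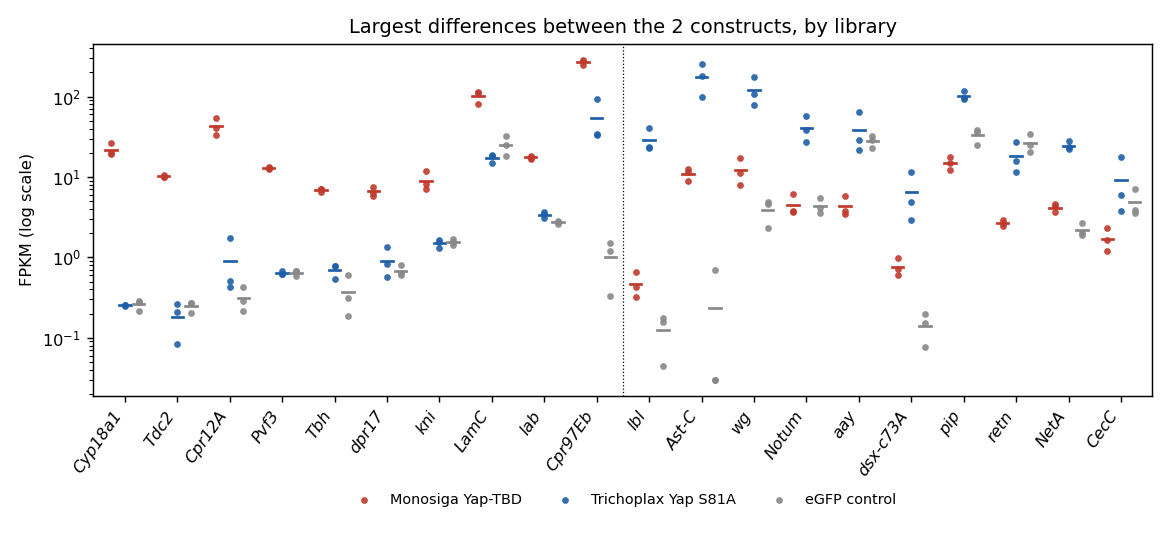
Points are the FPKM values of single libraries on a log axis for the 10 largest rises (left of the dotted line) and the 10 largest falls (right) with Monosiga Yap-TBD, with bars at the mean of each group of 3 libraries (Monosiga Yap-TBD red, Trichoplax Yap S81A blue, control grey). The pair of control libraries that list Ast-C at 0 is drawn at the lower edge. Trichoplax Yap S81A lies at the control level for Cyp18a1 (0.254 and 0.26 FPKM) and far above it for lbl (29.0 and 0.126 FPKM).

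Other factors of appendage and body patterning differed as well. Of 20 such genes tested, 6 were higher and 2 lower, 40% against 6.32% of all genes. The median log2 fold change was 0.60, and 0.02 with no filter on low values. The count of higher genes was 3 without Trichoplax Yap S81A replicate 3. The Hox gene lab (labial) was at 18.2, 16.9 and 17.4 FPKM with Monosiga Yap-TBD, at 3.62, 3.43 and 3.06 FPKM with Trichoplax Yap S81A and at 2.61 to 2.86 FPKM in the control (5.19-fold between the constructs, limma adjusted p = 8.38e-06). The related and neighbouring genes kni and knrl, which encode factors of the nuclear receptor family, were at 9.02 against 1.5 FPKM (6.02-fold, adjusted p = 0.000631) and at 3.64 against 0.925 FPKM (3.93-fold, adjusted p = 0.0016). The zinc finger genes drm and sob, of the odd-skipped family, were at 298 against 129 FPKM (adjusted p = 0.0329) and at 52.8 against 25.8 FPKM (adjusted p = 0.0111). The call of drm ended with any 1 of the 6 libraries left out (adjusted p 0.0747 to 0.122), and that of sob without Trichoplax Yap S81A replicate 3 (0.0516). The distal limb gene Dll was at 0.323, 0.602 and 0.564 FPKM against 2.64, 3.01 and 7.46 FPKM, with 0.282 to 0.530 FPKM in the control (0.114-fold, adjusted p = 0.00231).

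The cytoskeleton and its regulators were among the groups with more genes higher. Of 42 genes of actin and myosin, 7 were higher and 1 lower, 19% against 6.32% of all genes. The median log2 fold change was 0.12, and with 1 library left out 5 to 7 were higher. The filamin gene cher (3R 12917257 to 12944804), whose product crosslinks actin, was at 227, 190 and 185 FPKM with Monosiga Yap-TBD, at 56.7, 42.6 and 56.8 FPKM with Trichoplax Yap S81A and at 28.4 to 30.2 FPKM in the control (3.86-fold between the constructs, limma adjusted p = 5.4e-06). The gene cher overlaps cal1 on the other strand. The focal adhesion gene Pax (paxillin) was at 107, 100 and 95.9 FPKM against 53.1, 46.1 and 42.8 FPKM (2.13-fold, adjusted p = 2.41e-05), and the control lay at 57.6 to 61.9 FPKM, above Trichoplax Yap S81A. The nonmuscle myosin heavy chain gene zip was at 362 against 235 FPKM (1.54-fold, adjusted p = 0.00441), and the tropomyosin gene Tm1 at 573 against 366 FPKM (1.57-fold, adjusted p = 0.0049). Under quantile normalization Tm1 was not called (adjusted p = 0.0878). The actin bundling gene f (forked) was lower, with a log2 fold change of -1.30 (limma adjusted p = 0.00178).

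Adhesion and matrix genes had calls in both directions. In planar polarity, 2 of 19 genes were higher (fj and nmo) and 1 lower, 15.8% against 6.32% of all genes. The lower gene was stan, for the cadherin Flamingo, at 19.1, 18.6 and 21.7 FPKM against 40.9, 42.6 and 49.6 FPKM, with 33.5 to 50.7 FPKM in the control (0.447-fold, limma adjusted p = 0.0016). Of 22 genes of basement membrane and matrix, dlp and Timp were higher and Ppn and if lower, 18.2% against 6.32% of all genes. The papilin gene Ppn was at 43.4, 61.3 and 44.7 FPKM against 136, 154 and 167 FPKM (0.327-fold, adjusted p = 7.6e-05), and the integrin subunit gene if at 22.2 against 43.1 FPKM (adjusted p = 0.00631). The metalloprotease inhibitor gene Timp was at 101 against 37.6 FPKM (adjusted p = 0.0113), a call lost without Monosiga Yap-TBD replicate 2 or 3 or Trichoplax Yap S81A replicate 2 (up to 0.0573). Among 32 genes of apicobasal polarity and junctions, 12.5% were called, against 6.32% of all genes. The gene baz was higher, at 41.3 against 22.2 FPKM (adjusted p = 0.00856), and not called without Monosiga Yap-TBD replicate 1 (0.0511). The junction genes ed, Fas3 and Gli were lower by 0.71-fold to 0.767-fold (adjusted p 0.0251 to 0.0306), and each lost its call without Monosiga Yap-TBD replicate 1 or 2 or Trichoplax Yap S81A replicate 1 or 3, with adjusted p up to 0.135. The call of ed also ended without Trichoplax Yap S81A replicate 2, and that of Gli with either remaining library left out. With only the 2 groups in the fit Gli (adjusted p = 0.0732) and Fas3 (0.0592) were not called. Libraries shifted to one median ended the calls of Fas3 (0.127) and ed (0.0984), quantile normalization that of Fas3 (0.0814) and the replicate block that of Gli (0.0519).

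Few division genes separated the constructs. Of 54 genes of DNA replication and G1/S tested, E2f alone was called (1.85%, against 6.32% of all genes). The median log2 fold change was -0.03. Against the control, 39 of the 54 were called with Monosiga Yap-TBD, where 24.6% of all genes were, and 39 with Trichoplax Yap S81A, where 12.2% of all genes were. None of 57 genes of mitosis was called by limma between the constructs, and the median was -0.12. An unadjusted p under 0.05 was held by 3 of the 57, against 1603 of all 9213 genes. Of the 57, 11 had a log2 fold change above 0, and without Trichoplax Yap S81A replicate 3 it was 33, with a median of 0.03. With quantile normalization or the replicate block 1 mitosis gene was called lower. Among these genes the cdc25 phosphatase gene stg stood at 57.1 against 78.2 FPKM (limma adjusted p = 0.0919). Genes of protein turnover and ribosome making leaned one way without calls. All 36 genes of ribosome biogenesis had a log2 fold change above 0, with a median of 0.41, and none was called by limma. Of the 36, 17 had an unadjusted p under 0.05, against 1603 of all 9213 genes. The least adjusted p was that of Surf6, at 31.5, 37.7 and 32.7 FPKM against 17.5, 18.8 and 25.4 FPKM (adjusted p = 0.0657). After the libraries were shifted to one median 4 were called higher, and 36 of 36 stayed above 0 with a median of 0.45. With quantile normalization 1 was called and the median was 0.42. Against the control, 24 of the 36 were called with Monosiga Yap-TBD and 0 with Trichoplax Yap S81A. All 31 proteasome subunit genes tested were above 0 too, with a median of 0.22, no call by limma and 12 unadjusted p under 0.05, and 30 of 31 were above 0 after quantile normalization, with a median of 0.14. After the shift to one median 3 of them were called higher. Prosbeta7 was at 274, 303 and 283 FPKM against 231, 239 and 217 FPKM (adjusted p = 0.0606).

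**Figure D4:**
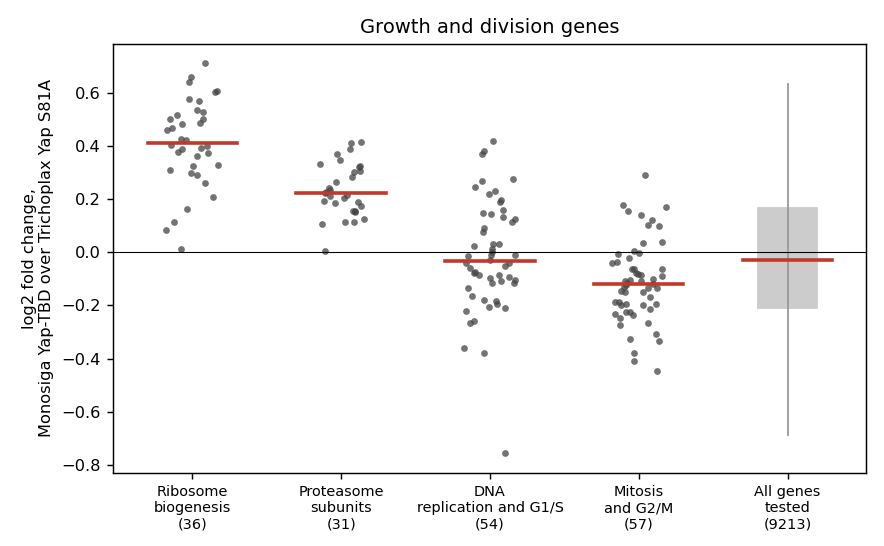
Each point is the log2 fold change of a gene, Monosiga Yap-TBD over Trichoplax Yap S81A, in 4 gene lists (number tested in brackets), and the red bar is the median. For all genes the box spans the quartiles (-0.21 and 0.168) and the line the 5th to 95th percentile (-0.688 and 0.634). The 36 ribosome biogenesis genes and the 31 proteasome genes lie above 0, with medians of 0.413 and 0.224, while 11 of the 57 mitosis genes lie above 0, with a median of -0.12.

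In growth control through Myc, insulin and TOR, 1 of 29 genes was higher (ImpL2) and 2 were lower, 10.3% against 6.32% of all genes. The TOR inhibitor gene chrb was at 22.7, 21.2 and 22.5 FPKM against 41.4, 35.0 and 39.1 FPKM, with 35.3 to 38.9 FPKM in the control (0.575-fold, limma adjusted p = 0.000979). The amino acid transporter gene mnd was at 36, 43.9 and 33.4 FPKM against 68.2, 68.5 and 112 FPKM, with 19.9 to 26.6 FPKM in the control (0.456-fold, adjusted p = 0.00742). Of 20 genes of cell death, th and grim were lower and none higher, 10% called against 6.32% of all genes. The death inducer gene grim was at 1.80, 2.44 and 1.80 FPKM against 5.88, 4.42 and 8.08 FPKM, with 1.66 to 2.46 FPKM in the control (adjusted p = 0.00348), so an inhibitor and an inducer of caspases were both lower. Among 23 JNK and stress genes, cher and Pvf1 were higher and none lower, 8.7% called against 6.32% of all genes. Pvf1, at 19.6 against 10.6 FPKM (adjusted p = 0.0264), lost its call without any 1 of 5 libraries, all but Monosiga Yap-TBD replicate 3 (up to 0.112).

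In glycolysis and lactate, Ald, ImpL3 and Zw were higher and Hex-A lower of 20 genes tested, 20% against 6.32% of all genes. The counts were 0 higher without Monosiga Yap-TBD replicate 1 or 2 or Trichoplax Yap S81A replicate 2. Hex-A, the hexokinase gene, was at 52.0 against 88.5 FPKM (limma adjusted p = 0.0109, and 0.0609 without Monosiga Yap-TBD replicate 2 or 0.0643 with only the 2 groups in the fit), Zw, for glucose-6-phosphate dehydrogenase, at 23.9 against 12.3 FPKM (adjusted p = 0.0153, up to 0.0856 without Monosiga Yap-TBD replicate 1 or 2 or Trichoplax Yap S81A replicate 2), and the aldolase gene Ald at 185 against 135 FPKM (adjusted p = 0.0293, up to 0.147 without any 1 library but Monosiga Yap-TBD replicate 3). Ald was also not called after quantile normalization (adjusted p = 0.064) or with only the 2 groups in the fit (0.0643). Among 28 genes of detoxification, 2 neighbouring glutathione transferase genes were higher and none lower, 7.14% called against 6.32% of all genes. GstD1 was at 1626, 1846 and 1323 FPKM against 673, 627 and 506 FPKM (2.66-fold, adjusted p = 0.000114), with 584 to 807 FPKM in the control, and GstD2 at 3.58 against 0.616 FPKM (5.81-fold, adjusted p = 0.00185). GstD genes are close copies of each other, so their split of reads is uncertain. None of 24 heat shock and chaperone genes was called by limma, and mrj had the least adjusted p (0.0842). An unadjusted p under 0.05 was held by 5 of the 24, against 1603 of all 9213 genes. The 23 immune genes tested had a median log2 fold change of -0.74, which was 0.05 without Trichoplax Yap S81A replicate 1. The summed level of all 31 genes of that list was 78.3 to 120 FPKM with Monosiga Yap-TBD, against 1534 FPKM in that replicate and 134 and 68.5 FPKM in the other Trichoplax Yap S81A libraries. Of the genes tested, PGRP-LB, for an amidase that breaks down bacterial peptidoglycan, was higher at 6.45, 4.70 and 2.77 FPKM against 0.625, 0.546 and 0.356 FPKM (9.11-fold, adjusted p = 0.000317), and CecC lower. PGRP-LB and CecC made up 8.7% of the immune genes tested, against 6.32% called of all genes.

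**Figure D5:**
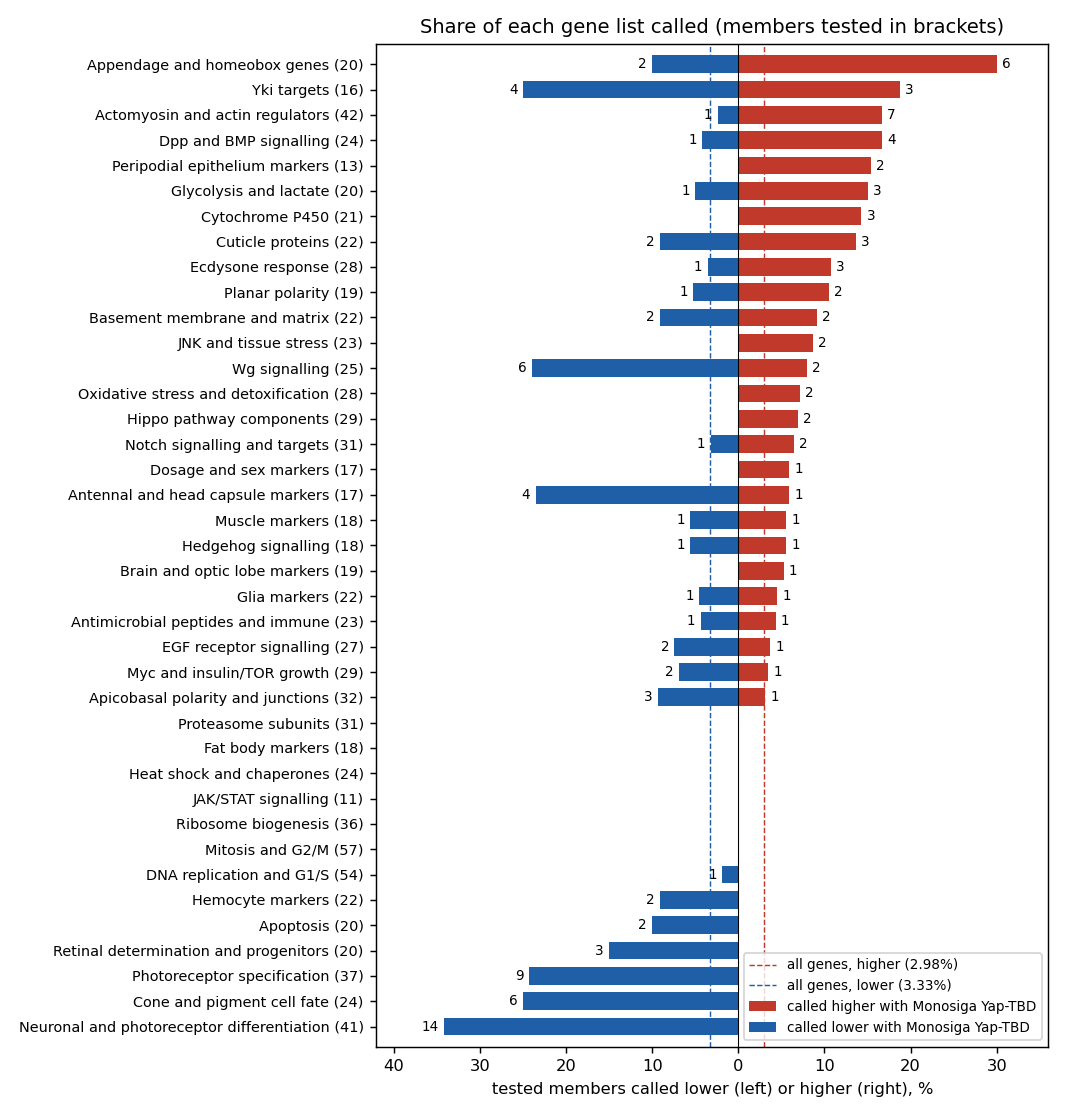
Bars are the percent of the tested members of each of 39 gene lists that were called lower (left, blue) or higher (right, red) with Monosiga Yap-TBD relative to Trichoplax Yap S81A, with the number of genes at each bar. Dashed lines are the shares of all genes tested, 2.98% higher and 3.33% lower. Neuronal and photoreceptor genes have 14 of 41 members lower and none higher, and appendage and homeobox genes 6 of 20 higher.

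Markers of other tissues were summed over each list, in FPKM. The 18 peripodial epithelium markers, genes of the flat layer over the disc, summed to 563 to 601 FPKM with Monosiga Yap-TBD, 381 to 400 with Trichoplax Yap S81A and 294 to 323 in the control. The called members were drm and sob, which also stand among the patterning genes. Without these the sums overlapped, at 205 to 251 FPKM with Monosiga Yap-TBD, 219 to 259 with Trichoplax Yap S81A and 212 to 245 in the control. The defining hemocyte genes were low in both groups, with Hml at 1.05 to 3.91 FPKM against 0.921 to 4.80 FPKM and srp at 0.541 to 1.21 FPKM against 0.490 to 2.61 FPKM. The 23 hemocyte markers summed to 200 to 281 FPKM against 351 to 408 FPKM, and the called members Ppn and lz were both lower. Without Ppn and lz the sums overlapped, at 138 to 220 FPKM against 139 to 236 FPKM. The fat body markers had no call by limma and 1 unadjusted p under 0.05, that of Fbp2 (limma adjusted p = 0.241). Without Trichoplax Yap S81A replicate 3, 1 of them was called higher and 3 lower. Their sums were 397 to 463 FPKM against 426, 482 and 7170 FPKM. The glial gene repo was at 10.9 to 13.1 FPKM against 15 to 22.3 FPKM (limma adjusted p = 0.2). The 24 glia markers summed to 814 to 852 FPKM against 746 to 810 FPKM, with pyr higher (adjusted p = 0.0246, up to 0.0998 without Monosiga Yap-TBD replicate 1 or 3 or Trichoplax Yap S81A replicate 1 or 2, and 0.0525 with only the 2 groups in the fit) and Gli lower. Without pyr and Gli the sums were 689 to 725 FPKM against 600 to 655 FPKM. The 28 muscle markers summed to 642 to 766 FPKM against 467 to 546 FPKM, with Tm1 higher and the titin-like gene sls lower (5.04 against 12.7 FPKM, adjusted p = 0.0016). Without Tm1 and sls the sums overlapped, at 106 to 130 FPKM against 105 to 131 FPKM. The 28 antennal and head capsule markers summed to 337 to 471 FPKM against 492 to 519 FPKM, with lab higher and Dll, dan, danr and lz lower. Without these 5 genes the sums overlapped, at 254 to 383 FPKM against 348 to 377 FPKM. The 34 brain markers summed to 408 to 455 FPKM against 360 to 548 FPKM, and the called member was Gad1, for the enzyme that makes GABA, at 3.93 against 0.698 FPKM (adjusted p = 0.000407, and 0.0535 with a pseudocount of 0.1). Among dosage and sex genes fru was called, at 14.4 against 4.12 FPKM (adjusted p = 0.00758). The share called was 15.4% of 13 peripodial, 9.09% of 22 hemocyte, 9.09% of 22 glia and 11.1% of 18 muscle markers tested. It was 29.4% of 17 antennal markers, 5.26% of 19 brain markers and 5.88% of 17 dosage and sex genes, against 6.32% of all genes. Of all these markers, 1 muscle marker was at 0 in all Monosiga Yap-TBD libraries and 1 antennal marker in all Trichoplax Yap S81A libraries. The part of these tissues in the other results was not tested. Without Trichoplax Yap S81A replicate 1, the library with fat body transcripts, 403 of the 582 calls were made again in the same direction.

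The authors' deposited table sets each construct against the control, as natural log ratios, and does not hold the direct comparison. In it, wg is at 1.11 with Monosiga Yap-TBD and 3.51 with Trichoplax Yap S81A. In the authors' deposited table Cyp18a1 is at 4.50 with Monosiga Yap-TBD and 0.0112 with Trichoplax Yap S81A. Of 143 genes set side by side, the difference of the authors' 2 ratios came within 0.2 of the natural log ratio of mean FPKM for 131 genes. Among the 12 outside that limit were aay, magu, verm, ImpE3, zip and PGRP-LB, which the authors' deposited table lists at 0 with a p-value of 1. The genes sd and Su(var)2-10 are listed at 0 for both constructs too, but count among the 131. The others outside the limit were Tm1, Timp, dsx-c73A, HisCl1, Tdc1 and st. For Tm1 the signs were opposite, -0.325 by the authors' ratios and 0.45 by mean FPKM. For Timp the values were 0.61 and 0.985. Both sides rest on the same libraries, so the closeness lends no support to the calls.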

How the data were processed

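The authors deposited FPKM values per gene and library, and the tools named are TopHat 1.0.14, CASAVA 1.7.0, Cuffdiff 1.0.2 and Cufflinks, with build dm3, per the submitters' processing notes. The authors' deposited comparison table sets each construct against the control, as natural log ratios with p-values, adjusted p-values above 1 (treated as a score) and a mean level on a log2 scale. The annotation, the use of strand and any further scaling between libraries are not given in the sources used here. Gene symbols and coordinates are those of the deposited tables.

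Here, log2(FPKM + 1) was fitted for the 9213 genes that reached 1 FPKM in 3 or more libraries with limma 3.58.1 (R 4.3.3), with all 15 libraries in 5 groups, a variance trend and robust moderation. P-values were adjusted over all genes tested (Benjamini-Hochberg) and called under 0.05. Folds without a log2 label are ratios of mean FPKM, and log2 fold changes understate the change of low genes. FPKM values are not counts, so no count test was run. Low values came as steps of whole fragments in 613 genes, which gave the depth, although only 50.6% to 63.7% of these values lay within 0.05 of a whole multiple. The labels describe triplicate RNA extractions, so p-values measure only the spread between these samples, which may be technical. The fit was tested on simulated data.

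The genes compared and the gene lists were chosen with earlier results of these data known. Named by rule were 12 genes of the Yki response and eye fate, the 10 largest rises and 10 largest falls among called genes with a symbol, a mean of at least 5 FPKM in the higher group and no overlap, up to 4 called members per list and direction, and the member with the least p of a list with no call. Other genes named were chosen after their values were seen. Not every gene that the rule names is reported here.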

Additional observations from a re-analysis of the deposited data

How the results depend on the processing

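The 582 calls became 591 and 528 with pseudocounts of 0.1 and 5, 584 with no filter on low values, 506 with an FPKM of at least 5 required, 635 with libraries shifted to one median, 557 after quantile normalization, 469 with only the 2 groups in the fit, and 577 without the variance trend and robust moderation. With 1 library left out the calls numbered 317 to 447, of which 152 to 210 were higher and 165 to 264 lower. The number of higher genes was also more than 1.5 times smaller without Monosiga Yap-TBD replicate 3 (183), and that of lower genes without Trichoplax Yap S81A replicate 2 (179). The share of calls that were higher ran between 40.9% without Monosiga Yap-TBD replicate 3 and 58.7% with libraries shifted to one median. Of 95 named genes called, 64 were called in every alternative that tested them, 31 lost the call in at least 1, and 12 of these lost it only with 1 library left out. Some counts grew with a library left out. Without Trichoplax Yap S81A replicate 3 these were lower immune genes (2), higher growth control genes (2), lower basement membrane genes (3) and higher ribosome biogenesis genes (1). Without Monosiga Yap-TBD replicate 3 they were lower Hedgehog genes (2), lower planar polarity genes (2) and lower Wg signalling genes (7). Without Trichoplax Yap S81A replicate 1 they were lower EGF receptor genes (3) and higher cuticle protein genes (4). Other such counts are given with their lists above. With 1 library left out the log2 fold change of CycE ran between -0.281 and 0.0488. The value above 0 came without Trichoplax Yap S81A replicate 3 (limma adjusted p = 0.947), a change of sign in a gene that was not called. Same-numbered libraries of the 2 constructs did not deviate together over all genes (correlations -0.058, -0.0037 and -0.2). With 3 libraries a group, this cannot exclude a pairing by number or shared handling that acts on some genes. With the replicate block there were 540 calls, 262 higher and 278 lower. The causes of these changes were not tested. Depth limits genes below about 1 FPKM, and intervals for counting error were not available from FPKM.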

Other observations

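Some called genes lay side by side on the chromosome, a description of regions chosen after their values were seen. From Pvf2 to ninaC on 2L, 14 genes were tested over 315 kb. The pair at one end, Pvf2 and Pvf3, for ligands of the PDGF and VEGF family, was higher with Monosiga Yap-TBD, and 5 genes at the other end (Wnt4, wg, Wnt6, Wnt10 and ninaC) were lower. The 7 genes between them were not called. Pvf2 was at 44, 38 and 38.1 FPKM with Monosiga Yap-TBD, at 21.4, 18.5 and 14.5 FPKM with Trichoplax Yap S81A and at 8.31 FPKM in the control (limma adjusted p = 0.0332), and lost its call with any 1 of the 6 libraries left out, with adjusted p up to 0.131.

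Beside ex, which was not called, CG13692 was at 75.5 FPKM with Monosiga Yap-TBD, 16.8 FPKM with Trichoplax Yap S81A and 3.83 FPKM in the control (limma adjusted p = 0.000137). Its neighbour BBS8 was at 29.3, 6.15 and 2.49 FPKM in the same groups (limma adjusted p = 0.000745). The 3 genes span 26.9 kb. On the same arm CG17104 was at 119 FPKM with Monosiga Yap-TBD against 5.27 FPKM with Trichoplax Yap S81A (22.6-fold, limma adjusted p = 3.68e-07), and CG7294, within 11.9 kb of it, at 36.4 against 1.25 FPKM (29.1-fold, limma adjusted p = 0.000406). The 3 genes tested between them were not called.

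Further genes with no name beyond a number separated the constructs as widely. CG32512 was at 126, 120 and 134 FPKM with Monosiga Yap-TBD and at 9.59, 4.91 and 6.83 FPKM with Trichoplax Yap S81A (17.8-fold, limma adjusted p = 5.98e-08). CG31607 was at 133 against 11.3 FPKM (11.7-fold, limma adjusted p = 1.26e-06). CG11073 was at 235 against 34.4 FPKM, with 43.1 FPKM in the control (6.83-fold, limma adjusted p = 5.98e-08). CG32512 overlaps bves and CG31607 overlaps CG8552 on the other strand, so their values are uncertain to that extent. The genes CG13692, BBS8, CG17104, CG7294, CG32512, CG31607 and CG11073 were called in every alternative.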
